A study of Mus musculus with 4 samples.

Results

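The genes examined here encode the mouse receptors for the constant part of IgG antibodies, the Fc gamma receptors. They are Fcgr1, Fcgr3 and Fcgr4, which encode activating receptors, Fcgr2b, which encodes the inhibitory receptor, and Fcer1g, which encodes the signalling chain that the activating receptors share. They were taken by symbol and make up 5 of the 32285 genes in the tables. All 5 passed the filter on low counts in every comparison. Spatial transcriptomes (10x Genomics Visium, a slide of barcoded spots that capture RNA from the tissue above them) came from 4 sections of MC38 tumors. The MC38 line comes from a colon carcinoma of a C57BL/6 mouse, and the hosts were 8 to 12 week old F1 females injected subcutaneously. The CC075F1 hosts (n = 2) had a C57BL/6J and a CC075/UncJ parent, and the study classes this strain as a responder to anti-PD-1. The CC080F1 hosts (n = 2) had a C57BL/6J and a CC080/TauUncJ parent, and the study classes this strain as a non-responder. All mice received 200 µg of the isotype control antibody 2A3 (Bioxcell) once, at a tumor volume of 75 to 110 mm3. Tumors were collected 48 h later and cut at 10 µm, so every value describes tumors not given anti-PD-1. Each host carried 1 haplotype of C57BL/6J and 1 of its Collaborative Cross parent, so the strains differ across that whole second haplotype.

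Fc gamma receptors sit on macrophages, monocytes, neutrophils, dendritic cells and natural killer cells, and B cells carry Fcgr2b. When IgG bound to a target clusters the activating receptors, Src family kinases phosphorylate the common gamma chain, Syk is recruited, and the cell engulfs or kills the target. Fcgr2b recruits the phosphatase SHIP-1 (Inpp5d) and dampens that signal, so the ratio of activating to inhibitory receptors sets a threshold for antibody responses. Fcgr1 and Fcgr4 are known to be induced by interferon gamma, and Fcgr2b by interleukin-4. In tumors, macrophages are the main cells that use these receptors, and they can also strip therapeutic antibodies from T cells.

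The members lay in 2 places on GRCm38. Fcgr2b (chr1:170958617-170976547, minus strand), Fcgr4 (chr1:171018920-171029761, plus strand), Fcgr3 (chr1:171051174-171064935, minus strand) and Fcer1g (chr1:171229572-171234365, minus strand) were neighbours on chromosome 1, whereas Fcgr1 (chr3:96282909-96293969, minus strand) was on chromosome 3. Fcgr2b and Fcgr3 share a nearly identical extracellular part. In windows of 90 bases, the length of the cDNA read, 64 of 3836 windows of the Fcgr2b transcripts (1.67%) also occurred in Fcgr3 transcripts. None of the windows in the last 500 bases of any member, where this 3′ assay reads, occurred in another member. Because reads had been aligned to the C57BL/6J reference while 1 haplotype of each host came from a Collaborative Cross parent, part of any strain difference could lie in read mapping, which was not tested.

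The promoters of Fcgr1, Fcgr4 and Fcgr2b are shown because the first pair had higher levels beside Cxcl9 transcripts, described below, and Fcgr2b is their inhibitory counterpart. Fcgr3 was also higher there, but its promoters are not printed. Each runs from 250 bases before to 50 bases after the RefSeq transcript start on GRCm38.p6, on the gene's strand, and capitals mark motif matches.
Fcgr1: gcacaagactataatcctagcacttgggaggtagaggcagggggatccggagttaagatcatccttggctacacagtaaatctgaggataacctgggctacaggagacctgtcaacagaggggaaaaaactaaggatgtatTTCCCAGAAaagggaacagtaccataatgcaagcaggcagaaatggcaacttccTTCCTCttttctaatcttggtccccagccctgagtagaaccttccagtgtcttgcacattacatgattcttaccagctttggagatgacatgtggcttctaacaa
Fcgr4: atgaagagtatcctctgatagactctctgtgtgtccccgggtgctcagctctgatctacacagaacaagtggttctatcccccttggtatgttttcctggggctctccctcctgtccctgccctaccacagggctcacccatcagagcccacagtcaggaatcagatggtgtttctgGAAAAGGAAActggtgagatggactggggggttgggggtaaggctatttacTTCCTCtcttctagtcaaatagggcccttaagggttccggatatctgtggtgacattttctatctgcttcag
Fcgr2b: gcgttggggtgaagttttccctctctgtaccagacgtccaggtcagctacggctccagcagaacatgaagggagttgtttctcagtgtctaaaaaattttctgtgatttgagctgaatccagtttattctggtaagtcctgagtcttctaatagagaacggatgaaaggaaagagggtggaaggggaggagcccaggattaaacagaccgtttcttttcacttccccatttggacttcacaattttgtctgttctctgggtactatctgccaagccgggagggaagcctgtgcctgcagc
These windows were chr3:96293920-96294219, chr1:171018676-171018975 and chr1:170976022-170976321. 3 motifs were searched on both strands. TTCNNNGAA, the core of the gamma-activated site, occurred in 8.47% of 27025 promoters of the same length and matched Fcgr1 as TTCCCAGAA, beginning at -109. GAAANNGAAA, a loose form of the interferon-stimulated response element, occurred in 3.49% and matched Fcgr4 as GAAAAGGAAA, beginning at -73. GAGGAA, the box bound by the myeloid factor PU.1, occurred in 28.3% and matched Fcgr1 at -55, Fcgr4 at -22 and both listed Fcgr3 promoters, each time as TTCCTC. No 2 matches overlapped. None of the 3 motifs was found in the Fcgr2b or Fcer1g window. The Fcgr2b window and both Fcgr3 windows lay wholly inside the gene spans given above. The bases before the outermost start of Fcgr2b and of Fcgr3 were therefore not searched. Neither listed promoter of Fcgr3 matched the gamma-activated site or the interferon-stimulated response element, although Fcgr3 too was higher beside Cxcl9 transcripts. These matches are letters in the reference and not measurements of binding, and the alleles of the Collaborative Cross parents were not examined.

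The sections held 2710 to 3276 spots under tissue and 82594649 to 146460975 UMIs, each UMI being 1 captured RNA molecule. CC075F1 replicate 2 stood apart as the deepest section (median 41740 UMIs per spot against 31139 to 34740) and as the section with the most spots holding skin, muscle or fat markers (131 of 3276, against 0 to 8 elsewhere). Of the barcodes, 1666 occurred in all 4 sections, as Visium slides share 1 list of barcodes. All 12 genes of a macrophage list were above 0 in every section, with summed levels of 4889 to 6481 CPM (UMIs scaled to the section's total) in CC075F1 and 4001 to 4220 CPM in CC080F1. The labels call the 2 tumors of each strain biological replicates and give no batch or date. P-values between strains rest on the spread between these sections. Those between spot classes rest on how far the difference within a section varied from section to section.

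The activating receptors and the common gamma chain had higher levels in both CC075F1 sections than in both CC080F1 sections, whereas Fcgr2b did not. Levels are CPM further scaled by the trimmed mean of M values (TMM), and are compared between sections but not between genes, because a 3′ tag count is not corrected for capture. Fcgr1, the high-affinity IgG receptor, was at 97.7 CPM in replicate 1 and 148.4 CPM in replicate 2 of CC075F1, against 35.1 and 53.2 CPM in those of CC080F1. The strain means were 123.1 ± 35.9 and 44.2 ± 12.8 CPM (SD, n = 2 each), a 2.79-fold difference. Fcgr4, which binds mouse IgG2 subclasses, was at 53.9 and 102.0 CPM in CC075F1 and at 16.7 and 40.9 CPM in CC080F1. Its lowest section, CC080F1 replicate 1, lay far below the other CC080F1 section, and the strain means differed 2.71-fold. Fcgr3, the low-affinity activating receptor, was at 108.4 and 154.8 CPM in CC075F1 and at 57.4 and 104.7 CPM in CC080F1. Here the closest sections of the strains nearly met. Fcer1g was at 418.7 and 932.9 CPM in CC075F1 and at 241.6 and 345.0 CPM in CC080F1, the highest value being that of the deepest section. Fcgr2b was at 51.7 and 60.5 CPM in CC075F1 and at 45.9 and 58.2 CPM in CC080F1, and the strains overlapped (56.1 ± 6.22 against 52.0 ± 8.70 CPM).

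**Figure D1:**
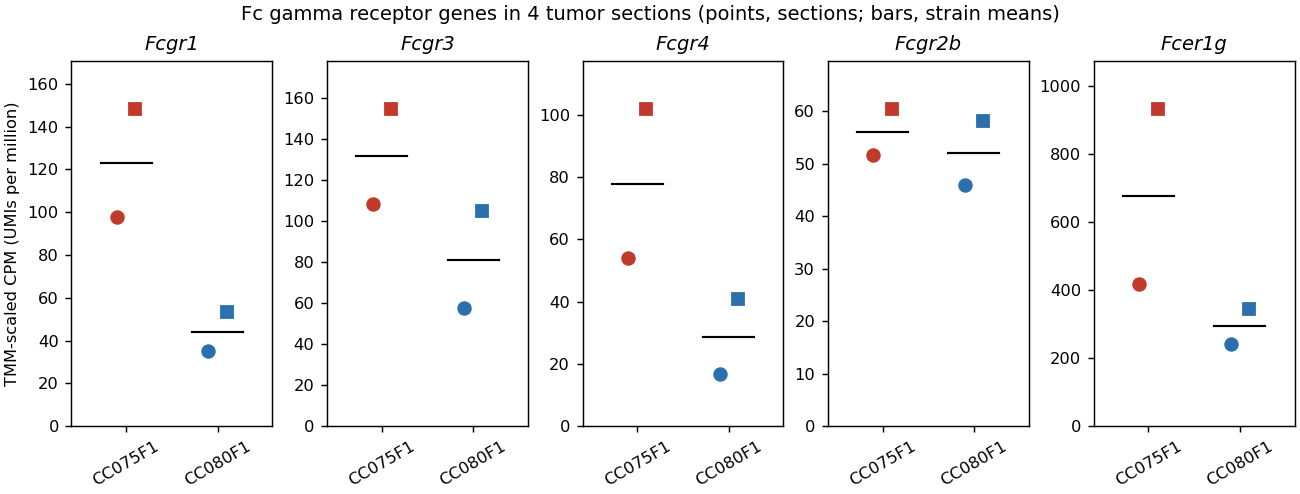
Level of each receptor gene in TMM-scaled CPM (vertical axes start at 0) in the 4 sections. Circles are replicate 1 and squares replicate 2 of CC075F1 (red) and CC080F1 (blue), and bars are strain means. Both red points lie above both blue points for Fcgr1, Fcgr3, Fcgr4 and Fcer1g, and the strains overlap for Fcgr2b.

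In edgeR's quasi-likelihood test over 15572 genes, adjusted by Benjamini-Hochberg, 0 of the 5 genes passed 0.05, against 0.0899% of all genes (14). At an unadjusted p under 0.05 the count was 3 of 5, against 846 of all 15572 genes. DESeq2 called 1 of 5, Fcgr1, against 204 of the 15961 genes to which it gave an adjusted p. The log2 fold changes, CC075F1 over CC080F1, were 1.48 ± 0.30 (SE) for Fcgr1 (edgeR adjusted p = 0.271), 1.44 ± 0.46 for Fcgr4 (edgeR adjusted p = 0.656) and 1.2 ± 0.44 for Fcer1g (edgeR adjusted p = 0.799). Those of Fcgr3 and Fcgr2b were 0.70 ± 0.33 (edgeR adjusted p = 0.830) and 0.11 ± 0.20 (edgeR adjusted p = 0.911). The groups did not overlap for 4 of the 5 genes, all higher in CC075F1, and among all genes 16.2% did so in that direction. Without TMM, the median of all genes was -0.31 on the log2 scale, and Fcgr2b was at -0.20, still above that median, while the other 4 remained positive. In plain CPM, Fcgr1 was at 105.6 and 110.5 in CC075F1 and at 40.9 and 56.8 in CC080F1, and Fcgr3 at 117.1 and 115.2 against 66.9 and 111.7. Without CC080F1 replicate 2 the fold changes of Fcgr1 and Fcgr4 were 1.82 (edgeR adjusted p = 0.0187) and 2.23 (edgeR adjusted p = 0.000141). Without CC075F1 replicate 2 that of Fcer1g was 0.52, and Fcgr4 was at 0.91, neither called.

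The ratio of activating to inhibitory transcripts was higher in CC075F1. It was taken as the UMIs of Fcgr1, Fcgr3 and Fcgr4 over those of Fcgr2b, which needs no scaling between sections and is not a ratio of proteins. Its values were 5.03 in replicate 1 and 6.70 in replicate 2 of CC075F1, against 2.38 and 3.42 in those of CC080F1. The means were 5.86 ± 1.18 and 2.90 ± 0.733 (SD, n = 2 each), 2.03-fold apart as geometric means, and the groups did not overlap. The two-sided exact permutation p was 0.333, the smallest that 2 sections against 2 can give, so this permutation test cannot pass 0.05 here. Each receptor contributed in the same direction. Fcgr1 over Fcgr2b was 1.89 and 2.45 against 0.766 and 0.915. Fcgr4 over Fcgr2b was 1.04 and 1.69 against 0.364 and 0.704. Fcgr3 over Fcgr2b was 2.10 and 2.56 against 1.25 and 1.80, the narrowest of the 3 contrasts. The activating genes did not move as a block: Fcgr4 over Fcgr3 was 0.497 and 0.659 against 0.291 and 0.391, and Fcgr1 over Fcgr3 was 0.901 and 0.959 against 0.612 and 0.508. By contrast, Fcer1g over the 3 activating receptors was 1.61 and 2.30 against 2.21 and 1.74 (two-sided exact permutation p = 1.0), so the strains overlapped for the chain relative to its receptors. In spots with at least 1 UMI of Adgre1, the gene of the macrophage marker F4/80, the balance was 5.17 and 6.90 against 2.41 and 3.52, and in interior spots 5.21 and 7.12 against 2.58 and 3.66.

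In spots with at least 5 UMIs of the 4 receptors together, the median share of Fcgr2b among those UMIs was 14.3% and 12.0% in CC075F1 and 28.6% and 20% in CC080F1. Fcgr2b equalled or exceeded the activating receptors in 2.44% and 1.06% of these spots in CC075F1 and in 18.4% and 8.15% in CC080F1. Between 63.1% and 95.2% of spots met the limit of 5 UMIs, with the lowest share in CC080F1 replicate 1. A spot covers several cells, so these shares do not say that both receptors lay on 1 cell.

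Each receptor gene was found in most spots of every section, except Fcgr4 in CC080F1 replicate 1. Fcgr1 had at least 1 UMI in 88.9% and 95% of CC075F1 spots and in 69.7% and 76.0% of CC080F1 spots, with exact (Clopper-Pearson) 95% intervals of 87.7 to 90.1%, 94.2 to 95.7%, 68.0 to 71.4% and 74.4 to 77.4%, which cover counting error only. Fcgr4 was detected in 76.6% and 89.3% of CC075F1 spots and in 44.0% and 67.5% of CC080F1 spots. Fcgr3 was detected in 91.7% and 96.4% against 85.0% and 92.2%, so the strains overlapped. Fcgr2b was detected in 74.6% and 79.9% against 77.5% and 82%, and Fcer1g in 98.3% to 99.8% of spots in every section. With each spot thinned to 10000 UMIs (2549 of 2710 and 3174 of 3276 spots of CC075F1 and 2734 of 2787 and 2969 of 3174 of CC080F1 were that deep), Fcgr1 was found in 64.1% and 65.2% against 33.5% and 41.5%, and Fcgr4 in 43.7% and 51.0% against 16.7% and 36.1%. At this equal depth Fcgr2b was found in 41.0% and 37.2% against 40.3% and 46.8%. The groups stood apart for Fcgr1 and Fcgr4 (two-sided exact permutation p = 0.333 each, the smallest possible) and overlapped for Fcgr2b.

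Fewer cells of a type and less RNA per cell cannot be told apart in such sums. The receptor levels were therefore also set against 12 macrophage genes, of which edgeR called 0 between the strains (4 at an unadjusted p under 0.05, 2 by DESeq2), with a median log2 fold change of 0.34 against -0.02 for all genes tested. Relative to their geometric mean, Fcgr1 was at -0.49 and -0.02 on the log2 scale in CC075F1 and at -1.67 and -1.17 in CC080F1, a difference of 1.17. Fcgr4 differed by 1.2, from -1.35 and -0.56 against -2.74 and -1.55. Fcer1g differed by 0.81, and Fcgr3 by 0.43 with overlapping strains. Fcgr2b was lower in CC075F1 by this measure, at -1.41 and -1.31 against -1.29 and -1.05, a difference of -0.19, but the strains overlapped in interior spots (-0.16) and with Adgre1, Cd68 and Itgam as the macrophage genes (two-sided exact permutation p = 1.0). With those 3 genes Fcgr3 differed by 0.62 and the strains did not overlap. Adgre1 itself was at 69.9 and 63.1 TMM-scaled CPM in CC075F1 and at 55.9 and 58.0 in CC080F1. In plain CPM it was at 75.5 and 47.0 against 65.1 and 61.9, so the strains overlapped without TMM. Markers of other cells that carry these receptors were also read. Of 6 dendritic cell genes edgeR called 0 (4 at an unadjusted p under 0.05, 1 by DESeq2). Only 3 of the 6 were positive, namely Batf3 at 1.52, Xcr1 at 1.86 and Clec9a at 1.57 on the log2 scale. The rest were negative, among them Cd209a at -2.26, and the list median was 0.69. Xcr1 and Clec9a had 24 to 112 UMIs per section and Cd209a 3 to 58. The summed level of the list was 13.4 to 19.8 CPM in CC075F1 and 13.4 to 14.1 CPM in CC080F1. Of 6 natural killer cell genes edgeR called 0 (2 at an unadjusted p under 0.05, 0 by DESeq2). Only 2 of those 6 were positive, Klrk1 at 1.43 and Klra8 at 1.09, and the list median was -0.26. Of 6 neutrophil genes edgeR called 0 (1 at an unadjusted p under 0.05, 0 by DESeq2). Of 3 B cell genes tested edgeR called 0 (1 at an unadjusted p under 0.05, 0 by DESeq2). All 3 were positive, with a median of 1.01. The summed level of the B cell list was 3.63 and 4.88 CPM in CC075F1 and 2.9 and 2.47 CPM in CC080F1. The part of these cells in the strain differences was not tested.

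Genes that act downstream of the receptors were read from a list of 20 for activating signalling and a list of 9 for inhibitory signalling. In the strain comparison edgeR called 0 of 20 (2 at an unadjusted p under 0.05, 0 by DESeq2), with a median log2 fold change of 0.27. It called 0 of 9 inhibitory genes (1 at an unadjusted p under 0.05, 0 by DESeq2), with a median of 0.10. Among the activating genes the GTPase Rac2 was at 0.79 ± 0.28, the oxidase subunit Ncf4 at 0.52 ± 0.24 and the Src family kinase Fgr at 0.71 ± 0.33, and Inpp5d was at 0.13 ± 0.18. Among 6 other Fc receptor genes tested, 1 was called. Fcrls, an Fc receptor-like gene of macrophages, fell by 1.96 ± 0.21 on the log2 scale in CC075F1 (edgeR adjusted p = 0.0419), from 80.4 and 98.8 CPM in CC080F1 to 21.3 and 24.9 CPM in CC075F1. Fcgrt, the neonatal Fc receptor that recycles IgG, was at -0.04 ± 0.19. Of 7 tested genes for receptors that pair with the gamma chain or resemble its partners, edgeR called 0 (2 at an unadjusted p under 0.05, 0 by DESeq2), and Tyrobp, the related adaptor DAP12, had a log2 fold change of 1.24 ± 0.43. Of 5 immunoglobulin genes tested, edgeR called 0 (2 at an unadjusted p under 0.05, 2 by DESeq2). The kappa light chain gene Igkc was at 1.57 and 22.2 CPM in CC075F1 and at 0.395 and 0.433 CPM in CC080F1, most of it in 1 section. The IgG2c heavy chain gene Ighg2c, whose product binds these receptors, had 1478 UMIs in CC075F1 replicate 2 and 2 UMIs in each other section.

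Placement within the sections was mapped from the summed UMIs over each spot and its neighbours, for the activating genes together and for Fcgr2b.

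**Figure D2:**
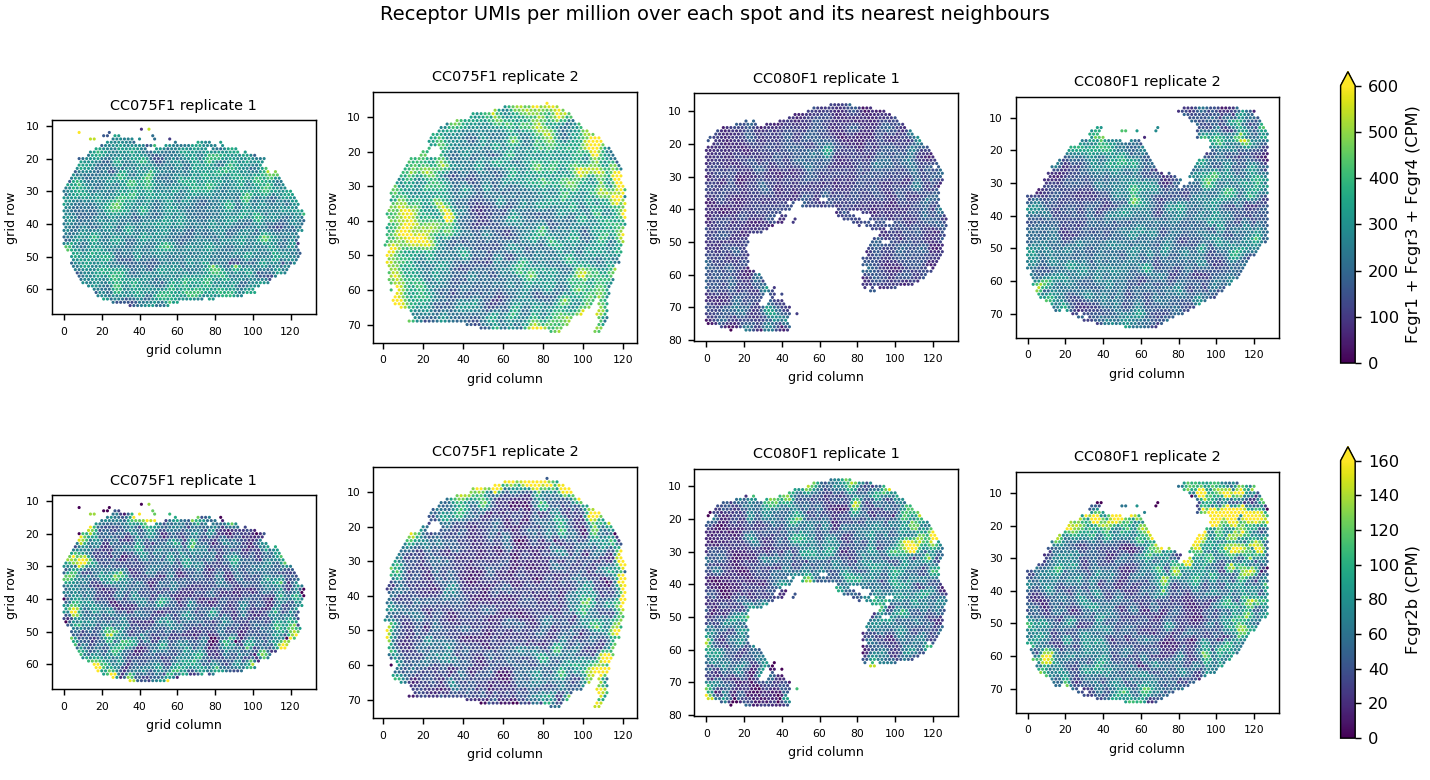
Maps of the 4 sections on the Visium grid (horizontal, grid column; vertical, grid row), coloured by CPM over each spot and its nearest neighbours for Fcgr1, Fcgr3 and Fcgr4 together (top) and Fcgr2b (bottom). Section medians were 278.2 and 304.6 CPM in CC075F1 and 125.2 and 212.0 CPM in CC080F1 for the activating genes, and 53.4 and 42.2 CPM against 51.6 and 61.0 CPM for Fcgr2b.

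Fcgr2b was higher at the tumor edge in all 4 sections. The edge was taken as spots within 3 steps of the nearest grid position off tissue (568 to 880 spots per section). Fcgr2b was at 63.8 CPM at the edge and 50.2 CPM in the interior of CC075F1 replicate 1 and at 90.7 and 57.9 CPM in replicate 2. In CC080F1 it was at 54.4 and 43.1 CPM in replicate 1 and at 78.3 and 55.3 CPM in replicate 2. In the edgeR fit with the section as a block, Fcgr2b rose by 0.46 ± 0.07 (SE) on the log2 scale (edgeR adjusted p = 0.0265). It was the only 1 of the 5 genes called by edgeR, against 1.1% of 15089 genes tested, and it moved the same way in 4 of 4 sections, as did 26.9% of all genes. The call was lost without CC075F1 replicate 1 (log2 fold change 0.50, edgeR adjusted p = 0.114) and without CC080F1 replicate 2 (0.45, edgeR adjusted p = 0.197), and the number of all genes called went from 166 to 20 and 4. Edge spots were shallower, with medians of 18032 to 30120 UMIs against 33592 to 46146 in the interior.

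The other 4 genes were near level across the edge. Fcgr1 was at -0.02 ± 0.06 on the log2 scale, turning to 0.05 without TMM, Fcgr4 at 0.02 ± 0.07 and Fcgr3 at 0.08 ± 0.06 (edgeR adjusted p = 0.850, 0.907 and 0.519). Fcer1g was lower at the edge in 4 of 4 sections, although CC075F1 replicate 2 turned to 0.10 without TMM, at -0.17 ± 0.06 (edgeR adjusted p = 0.185), and DESeq2 called it (-0.18, DESeq2 adjusted p = 0.0136). For Fcgr4 the CC075F1 section ratios were 0.11 and 0.17 and the CC080F1 ones -0.03 and -0.19, and for Fcgr3 they were 0.09 and 0.26 against -0.01 and -0.02. That both sections of 1 strain lay above 0 and both of the other below held for 9.95% of all genes. The strain difference of the edge ratio did not pass for either (0.26 ± 0.11, edgeR adjusted p = 0.575, and 0.19 ± 0.11, edgeR adjusted p = 0.691). No member passed this test of a strain difference in any of the 4 contrasts, where edgeR called 0.106% of genes for the edge, 0.00691% and 0.0% for the Cxcl9 and Spp1 ranks described next and 0.0345% for hypoxia.

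**Figure D3:**
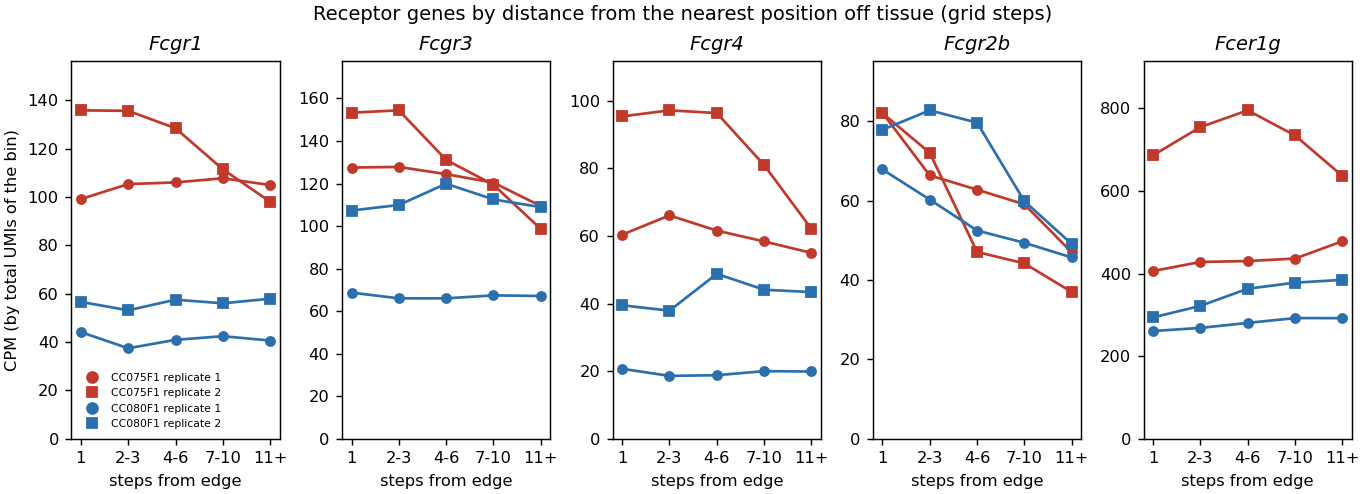
CPM by the total UMIs of each bin (vertical axes start at 0) against grid steps from the nearest position off tissue, for each receptor gene and section. Fcgr2b runs from 67.9 to 82.2 CPM in the outermost spots to 37.0 to 49.1 CPM beyond 10 steps in all 4 sections, while Fcgr1, Fcgr3 and Fcgr4 are lower beyond 10 steps than at step 1 in CC075F1 replicate 2 and CC080F1 replicate 1 and Fcgr3 and Fcgr4 also in CC075F1 replicate 1.

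Step by step, Fcgr2b in CC075F1 replicate 1 ran from 82.2 CPM at step 1 to 66.4, 62.8, 59.1 and 47.0 CPM in the bins of steps 2 to 3, 4 to 6, 7 to 10 and beyond. In CC080F1 replicate 2 it was at 77.9 CPM at step 1, 82.8 and 79.7 CPM in the next bins, and 49.1 CPM beyond 10 steps, so its high zone was wider there. Fcer1g ran the other way in 3 sections, from 293.7 to 384.7 CPM in CC080F1 replicate 2. The balance of activating receptors to Fcgr2b was lower at the edge, at 4.18 against 5.21, 5.16 against 7.12, 2.00 against 2.58 and 2.48 against 3.66. The mean log2 difference was -0.43 ± 0.11 (SD, n = 4), lower in 4 of 4 sections, with a two-sided exact sign permutation p of 0.125, the smallest that 4 pairs allow.

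Markers of other cells also moved at the edge. edgeR called 3 of 6 neutrophil genes higher (S100a8, S100a9 and Retnlg) and 3 of 5 mast cell and basophil genes higher (Cma1, Mcpt4 and Tpsb2). Summed over the list, neutrophil genes were at 59.9 to 260.9 CPM in CC075F1 sections and 213.4 to 269.2 CPM in CC080F1 sections. Most of that sum was Mmp9 (73.3 to 235.8 TMM-scaled CPM), which was at -0.26 ± 0.07 at the edge and not called. The called neutrophil genes were near the floor, with S100a8 at 0.807 to 1.91 and S100a9 at 0.359 to 2.08 TMM-scaled CPM. Retnlg had 5 to 21 UMIs per section. Mast cell and basophil genes summed to 2.60 to 4.54 CPM in CC075F1 and 4.73 to 6.04 CPM in CC080F1, with Mcpt8 at 0 in at least 1 section. All 5 endothelial genes tested had positive log2 ratios with a median of 0.49, of which edgeR called 0 (4 at an unadjusted p under 0.05, 4 by DESeq2). It called 0 of 12 macrophage genes there (1 at an unadjusted p under 0.05, 0 by DESeq2) and 0 of 2 B cell genes (0 at an unadjusted p under 0.05, 0 by DESeq2). The part of these cells in the Fcgr2b difference was not tested. Beside the members, Fgr, a Src family kinase, rose by 0.64 ± 0.10 at the edge (edgeR adjusted p = 0.0319). So did Clec4n, which encodes the gamma chain-coupled lectin Dectin-2, by 0.76 ± 0.11 (edgeR adjusted p = 0.0310), and Ighg2c, by 6.53 ± 0.65 (edgeR adjusted p = 0.00799), the last resting on 1 section.

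Next, spots were ranked in each section by the level of Cxcl9, a chemokine induced by interferon gamma, over the spot and its neighbours. The 1 in 3 spots with the highest level (Cxcl9-high) were compared with the 1 in 3 with the lowest (Cxcl9-low), so Cxcl9 itself is no result. The 3 activating receptors were higher in Cxcl9-high spots. Fcgr4 was at 60.8 against 49.8 CPM in CC075F1 replicate 1, 140.0 against 71.7 in replicate 2, 22.4 against 13.0 in CC080F1 replicate 1 and 58.6 against 24.8 in replicate 2. All 4 sections were higher, and Fcgr4 rose by 0.82 ± 0.14 on the log2 scale (edgeR adjusted p = 0.0171). Fcgr1 rose by 0.46 ± 0.09 (edgeR adjusted p = 0.0258), with section ratios of 0.13, 0.71, 0.40 and 0.59 in the same order. Fcgr3 rose by 0.30 ± 0.06 (edgeR adjusted p = 0.0272), with section ratios of 0.17 to 0.49, and 39.7% of all genes had 1 direction in all 4 sections. Fcgr2b was at 0.14 ± 0.06 (edgeR adjusted p = 0.141), and Fcer1g at 0.15 ± 0.08 (edgeR adjusted p = 0.276) with CC075F1 replicate 1 at -0.15. Thus 3 of 5 genes were called, all higher, where 12.2% of 14463 genes were called and 6.54% were higher. Without CC080F1 replicate 2, none of the 3 was called (edgeR adjusted p = 0.111 to 0.163) and the number of all genes called was 37 instead of 1758. Without CC075F1 replicate 1, Fcgr3 was at 0.34 (edgeR adjusted p = 0.0571) and 459 genes were called, while without CC075F1 replicate 2 and CC080F1 replicate 1 the 3 calls were kept among 808 and 2747. Without TMM the median of all genes lay at 0.13, the split of all calls was 1597 higher and 264 lower instead of 946 and 812, and Fcgr2b was called at 0.29 (edgeR adjusted p = 0.0414).

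**Figure D4:**
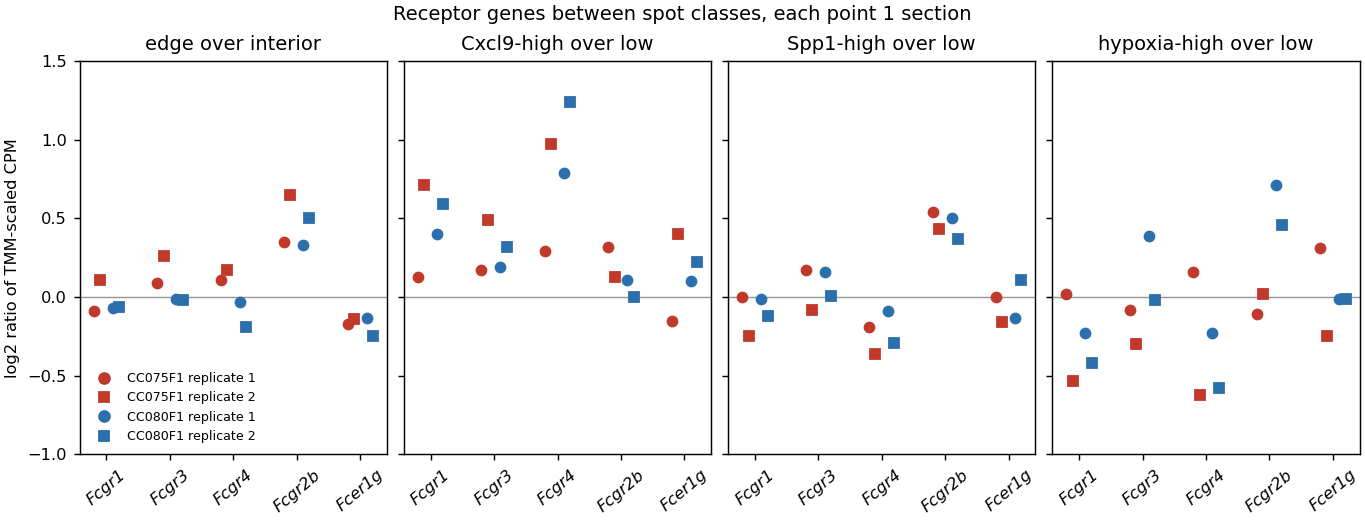
Log2 ratio of the TMM-scaled CPM of each receptor gene between spot classes, in 4 contrasts, with 1 point per section (red, CC075F1; blue, CC080F1; circles, replicate 1; squares, replicate 2; line at 0). In Cxcl9-high spots all sections lie above 0 for Fcgr1, Fcgr3 and Fcgr4, and at the edge and in Spp1-high spots all lie above 0 for Fcgr2b.

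The balance in Cxcl9-high spots was higher in 3 of 4 sections, at 8.27 against 5.59 in CC075F1 replicate 2, 2.58 against 2.18 in CC080F1 replicate 1 and 4.03 against 2.70 in CC080F1 replicate 2. CC075F1 replicate 1 went the other way, at 4.83 against 5.32. The mean log2 difference was 0.31 ± 0.34 (SD, n = 4, two-sided exact sign permutation p = 0.25). Fcer1g over the activating receptors was lower in Cxcl9-high spots in 4 of 4 sections, by a mean log2 difference of -0.30 ± 0.05 (SD, n = 4, two-sided exact sign permutation p = 0.125, the smallest possible). Of 20 activating signalling genes, 11 rose and 0 fell in Cxcl9-high spots, with a median log2 ratio of 0.37. The smallest p among them were those of Cybb (0.60 ± 0.06) and Ncf4 (0.39 ± 0.07), subunits of the phagocyte oxidase, the adaptor Lcp2 (0.68 ± 0.12) and the kinase Prkcd (0.31 ± 0.06). Of 9 inhibitory signalling genes, 3 rose, namely Inpp5d (0.48 ± 0.10), Ptpn6 (0.60 ± 0.10), the phosphatase SHP-1, and the adaptor Dok2 (0.59 ± 0.14). Clec4d and Clec4e, lectins that pair with the gamma chain, fell by 0.77 and 0.69 on the log2 scale (edgeR adjusted p = 0.0246 and 0.0257). Of the immunoglobulin genes Ighg2c, Ighm, Igkc and Jchain rose, by 0.74 to 2.01, although most UMIs of Ighg2c, Igkc and Jchain came from CC075F1 replicate 2 and Ighm alone was at a like level in all sections (2404 to 3679 UMIs). Of the other Fc receptors Trim21, the cytosolic one, rose by 0.40 and Fcrls fell by 0.66 on the log2 scale. Markers of other cells moved too. edgeR called all 5 endothelial genes tested, 2 of 6 dendritic cell genes (Batf3 and Clec9a) and 1 of 6 natural killer cell genes (Klrk1) higher. It also called 1 of 5 mast cell and basophil genes (Mcpt4) and 1 of 5 neutrophil genes (Csf3r) higher. Csf3r was the only neutrophil gene with a positive log2 ratio, and the median of that list was -0.16. Of 12 macrophage genes edgeR called C1qa higher and Cd14 lower. In the sections, summed endothelial genes were at 52.7 to 66.0 CPM in CC075F1 and 82.5 to 118.9 CPM in CC080F1, and summed natural killer cell genes at 18.7 to 23.1 and 7.34 to 34.7 CPM. Their part in the receptor differences was not tested. Cxcl9-high spots were shallower, with medians of 28172 to 33506 UMIs against 35666 to 52652.

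Spots were ranked in the same way by Spp1, which encodes osteopontin and which the study sets against Cxcl9 as a measure of macrophage state. No gene was called in this contrast by edgeR (0 of 14517, 0.0% called, with 2246 at an unadjusted p under 0.05 and 260 called by DESeq2). Among the 5 members edgeR called 0 (2 at an unadjusted p under 0.05, 1 by DESeq2). Fcgr2b was nonetheless higher in Spp1-high spots of every section, at 63.1 against 43.2, 71.5 against 52.9, 53.7 against 37.9 and 64.9 against 50.3 CPM. Its log2 ratio was 0.46 ± 0.05 (edgeR adjusted p = 0.0982), and over the alternatives the adjusted p ran from 2.61e-07 with DESeq2 to 0.289 without CC075F1 replicate 2. Without CC075F1 replicate 1 edgeR called Fcgr2b (0.43, edgeR adjusted p = 0.0260) and 321 genes in all. Fcgr4 was lower in 4 of 4 sections, at -0.24 ± 0.06 (edgeR adjusted p = 0.171), and Fcgr1, Fcgr3 and Fcer1g were at -0.10, 0.06 and -0.04, of which Fcgr3 turned to -0.04 without TMM, where the median of all genes was -0.11. Of the activating and inhibitory signalling genes edgeR called 0 of 20 and 0 of 9 (0 and 2 at an unadjusted p under 0.05, 0 and 0 by DESeq2). The share of all genes with 1 direction in 4 sections was 23.5%. The balance was lower in Spp1-high spots in 4 of 4 sections, at 4.19 against 5.97, 5.27 against 8.23, 2.09 against 2.82 and 2.96 against 4.06. The mean log2 difference was -0.51 ± 0.09 (SD, n = 4, two-sided exact sign permutation p = 0.125, the smallest possible). Hypoxia and neutrophil genes were also read in this rank. All 12 hypoxia genes had positive log2 ratios with a median of 0.82, of which edgeR called 0 (11 at an unadjusted p under 0.05, 1 by DESeq2). Of 5 neutrophil genes it called 0 (2 at an unadjusted p under 0.05, 0 by DESeq2). S100a8 was at 1.04 and S100a9 at 1.3, both near the floor, and Mmp9 was at 0.19 ± 0.14. Their part in the Fcgr2b and balance differences was not tested.

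**Figure D5:**
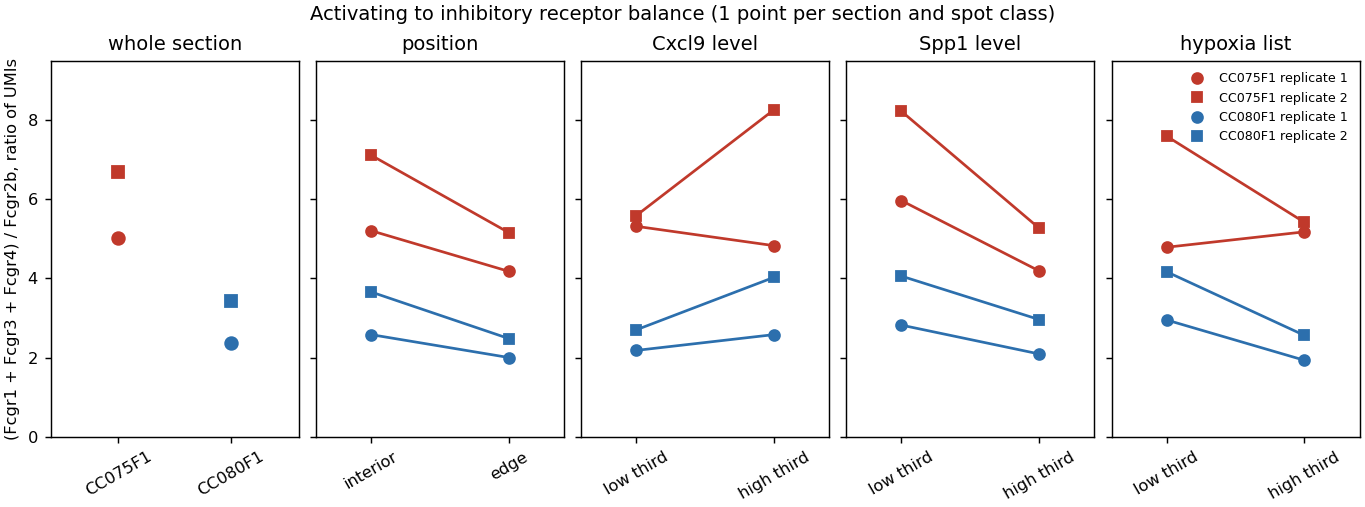
Ratio of Fcgr1, Fcgr3 and Fcgr4 UMIs to Fcgr2b UMIs (vertical axis, from 0) in whole sections and in classes of spots, with lines joining the classes of 1 section (red, CC075F1; blue, CC080F1; circles, replicate 1; squares, replicate 2). The CC075F1 sections at 5.03 and 6.70 lie above the CC080F1 sections at 2.38 and 3.42, and the balance is lower at the edge and in Spp1-high spots in all 4 sections.

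Spots were last ranked by a hypoxia list of 12 genes such as Car9 and Vegfa. Fcgr1 was lower in hypoxia-high spots and fell by 0.29 ± 0.09 on the log2 scale (edgeR adjusted p = 0.0420). It was the only 1 of 5 called, no larger a share than among all 14476 genes (26.6% called, 13.2% called lower). Its section values were 97.8 against 96.5 CPM and 120.3 against 173.3 CPM in CC075F1, and 30.9 against 36.3 CPM and 45.1 against 60.4 CPM in CC080F1, so 3 of 4 sections were lower, and without TMM 4 of 4. The call was lost without CC075F1 replicate 2 (-0.20, edgeR adjusted p = 0.110), CC080F1 replicate 1 (-0.31, 0.0821) or CC080F1 replicate 2 (-0.25, 0.185). Fcgr4 was at -0.33 ± 0.12 (edgeR adjusted p = 0.0844), and was called without CC075F1 replicate 1 (-0.48, edgeR adjusted p = 0.0138). Fcgr3 and Fcer1g were at -0.01 ± 0.10 and 0.01 ± 0.09, of which Fcer1g turned to -0.19 without TMM. Fcgr2b was at 0.27 ± 0.13 (edgeR adjusted p = 0.144), with CC075F1 section ratios of -0.11 and 0.02 (the latter -0.38 without TMM) and CC080F1 ratios of 0.71 and 0.46. The difference of these ratios between the strains was -0.62 ± 0.13 (edgeR adjusted p = 0.258), which did not pass. The balance was lower in hypoxia-high spots in 3 of 4 sections, by a mean log2 difference of -0.42 ± 0.37 (SD, n = 4, two-sided exact sign permutation p = 0.25), with CC075F1 replicate 1 at 5.18 against 4.79. Of 20 activating signalling genes, 0 rose and 10 fell, with Lcp2 at -0.74 ± 0.09, Rac2 at -0.38 ± 0.07, Pik3cd at -0.67 ± 0.14 and Cybb at -0.43 ± 0.09, and of 9 inhibitory ones Dok2, Ptpn6 and Inpp5d fell by 0.85, 0.51 and 0.50. Clec4d and Clec4e rose by 0.99 and 1.08 (edgeR adjusted p = 0.000833 and 0.00588). All 5 endothelial genes tested, 4 of 5 mast cell and basophil genes, 3 of 6 dendritic cell genes and 2 of 6 natural killer cell genes fell, and of 12 macrophage genes Cd14 and Itgam rose and Mrc1 fell. Their part was not tested. Without TMM the median of all genes lay at -0.19 and the split of all calls was 731 higher and 4321 lower instead of 1941 and 1914. Depth differed between the classes, with medians in hypoxia-high against hypoxia-low spots of 35078 against 26457 and 57351 against 28552 UMIs in CC075F1. In CC080F1 the medians were 34746 against 30575 and 33079 against 35290.5 UMIs. The 3 ranks are not independent, since all 12 hypoxia genes fell in Cxcl9-high spots and had positive ratios in Spp1-high spots.

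The members differed in which genes they followed across the tissue. Each section was divided into tiles of 6 grid rows by 12 grid columns, giving 82 to 97 tiles of about 36 spots. Pearson correlations of log2(CPM + 1) were taken within sections over 4817 genes and averaged. These were the genes with at least 20 CPM in every section, and the members whatever their level (Fcgr4 was at 19.5 CPM in CC080F1 replicate 1). The correlations are a description, since tiles of a section share its library, depth and cell makeup. Fcgr1 was most like Ms4a4c (mean r = 0.66), C1qb, Irf7, Aif1 and Ctsc. Fcgr4 was most like Ly6a (0.65), Ms4a4c (0.65), Ctss, Cfb and Pld4. Fcgr3 was most like the growth factor receptor gene Csf1r (0.60), H2-DMa, C1qc, Psap and Irf8, and Fcer1g most like Ctss (0.69), Cd52, C1qb, Lst1 and C1qc. Fcgr2b was most like Clec4n (0.68), followed by Gm2a, Psap, Neat1 and AA467197, and shared only Psap with the top 5 of any other member. Among the members, Fcgr1 and Fcgr4 were the closest pair (mean r = 0.59), and Fcgr4 ranked 8 of 4816 genes for Fcgr1. Fcgr2b was close to Fcgr3 alone (0.52), and its mean r was 0.04 with Fcgr1, 0.09 with Fcgr4 and -0.14 with Fcer1g. For every pair of members the correlation was highest in CC075F1 replicate 2, for example 0.80 for Fcgr1 with Fcgr4 against 0.29 in CC075F1 replicate 1.

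Spatial clustering was measured per section. Moran's I, which is near 0 for values placed at random and rises as neighbouring spots grow alike, was 0.211 and 0.275 for Fcer1g in CC075F1 and 0.140 and 0.189 in CC080F1. It was 0.0965 and 0.155 against 0.0688 and 0.121 for Fcgr1, and 0.0829 and 0.117 against 0.140 and 0.0939 for Fcgr2b. On this log2(CPM + 1) scale the strains stood apart for Fcer1g and Fcgr3 (0.146 and 0.115 against 0.0996 and 0.104) and overlapped for the other 3 genes. For both, the two-sided exact permutation p was 0.333, the smallest possible. The share of all genes that stood apart was not computed. With the square root of the CPM the strains overlapped for both genes. Fcer1g was then at 0.22 and 0.382 against 0.153 and 0.232, and Fcgr3 at 0.101 and 0.188 against 0.111 and 0.0891. On the log2 scale Adgre1 lay between 0.0673 and 0.129 and the pan-leukocyte gene Ptprc between 0.0393 and 0.0736. With spots thinned to 10000 UMIs, I was lower for all 5 genes in every section. Fcgr1 was then at -0.00205 and 0.0818 against 0.0416 and 0.0111, so it was near 0 in CC075F1 replicate 1 and CC080F1 replicate 2. Fcer1g was at 0.0559 and 0.165 against 0.0309 and 0.0740, and the strains overlapped. The other 3 genes lay between 0.0266 and 0.0952.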

How the data were processed

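Visium gene expression was measured in 4 MC38 tumor sections, and groups came from the labels. The values used are counts of UMIs for every gene in each spot under tissue, deposited by the authors, who made them with Space Ranger 1.3.1 on the 10x mm10 (GRCm38) reference, and they are not normalized. Spots were placed by the deposited grid positions. The authors' own spot normalization in Seurat was not used.

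UMIs were summed per section, or per section and spot class, because spots of 1 section are not replicates. The quasi-likelihood test of edgeR 4.0.16 in R 4.3.3 was run on these sums after filterByExpr and TMM scaling, with the strain as the term, or with the section as a block for spot classes and a second fit for the strain by class term. P-values were adjusted by Benjamini-Hochberg over all genes tested, with a threshold of 0.05. DESeq2 1.42.0 was an alternative. Ratios, shares and Moran's I (log2(CPM + 1), up to 6 neighbours) were compared over sections by two-sided exact permutation tests. Spots counted as holding skin, muscle or fat at 20 summed marker UMIs. The fits were tested on simulated data.

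Section depths of 82594649 to 146460975 UMIs leave counting error small beside the spread between sections. The 5 genes are always named. From each list, genes called in a contrast are named, or with none or over 8 called up to 4 with the smallest p, and for likeness the 5 highest correlations; a gene that this rule names is not reported here. Fcrls, Ighg2c and Igkc levels, Fcgrt, Tyrobp, and Inpp5d were chosen after their values were seen. The members and lists were chosen with earlier results of these data known. Clec7a, listed as a gamma chain partner, had no row and was not used here. Promoters are from RefSeq, gene positions from GENCODE vM21, which matched all 5 symbols. Alternatives were scaling, filter, tool, class definitions, spot depth and leaving out each section.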

Additional observations from a re-analysis of the deposited data

How the results depend on the processing

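Every result was computed again under the alternatives, of which 347 of 428 were counted as unchanged. For receptor fold changes this meant the same direction and side of the threshold, and for numbers of called genes a similar count. For ratios, shares, levels relative to macrophage genes and Moran's I it meant the same direction alone. No called difference changed direction. The cause of the changes was not tested.

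For the strain comparison, the 14 calls became 40 with library size alone, 480 without a filter on low counts, 204 with DESeq2 and 287 with the replicate block. The log2 fold change of Fcgr1 was 1.48 without a filter (edgeR adjusted p = 3.34e-06), 1.49 with DESeq2 (adjusted p = 0.000737) and 1.48 with the replicate block (edgeR adjusted p = 0.00109). That of Fcgr4 was 1.43 without a filter (edgeR adjusted p = 1.6e-06) and 1.5 with the replicate block (edgeR adjusted p = 0.000606), and that of Fcer1g 1.2 without a filter (edgeR adjusted p = 0.0353). Fcgr2b was -0.20 with library size alone. The labels give the numbers as biological replicates and name no shared litter, batch or day, and with 2 pairs deviations of same-numbered sections correlated at 0.165, which does not settle whether they are pairs, so they were not treated as such. The block left 1 degree of freedom among sections. Leaving out each section gave 1.15 to 1.82 for Fcgr1, 0.91 to 2.23 for Fcgr4, 0.33 to 1.21 for Fcgr3, 0.52 to 1.67 for Fcer1g, -0.05 to 0.30 for Fcgr2b and 11 to 207 calls, the highest counts being 138 without CC080F1 replicate 1 and 207 without CC080F1 replicate 2. A lone section was then assumed to vary like the others.

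At the edge, 166 calls became 683 without a filter, 611 with DESeq2, 71 with an edge of 5 steps, 403 in deep spots and 4 to 946 without single sections (20 without CC075F1 replicate 1, 79 without CC075F1 replicate 2, 946 without CC080F1 replicate 1 and 4 without CC080F1 replicate 2). Fcgr1 was 0.05 with library size alone, Fcgr4 -0.01 without a filter, and Fcer1g -0.18 with DESeq2. Leaving out sections gave 0.39 to 0.50 for Fcgr2b and -0.04 to 0.09 for Fcgr4. In Cxcl9-high spots, Fcgr2b was 0.29 with library size alone, and leaving out sections gave 37 to 2747 calls, 0.38 to 0.57 for Fcgr1, 0.24 to 0.34 for Fcgr3 and 0.69 to 1.01 for Fcgr4.

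In Spp1-high spots, 0 calls became 1 with library size alone, 53 without a filter, 260 with DESeq2, 2 with the 1 in 4 highest and lowest spots, 7 ranked by the spot alone, 10 in deep spots and 0 to 321 without single sections. Fcgr2b was 0.46 without a filter, 0.46 with DESeq2, 0.42 by the spot alone, 0.45 in deep spots and 0.43 to 0.49 without single sections, and Fcgr3 -0.04 with library size alone. In hypoxia-high spots, Fcgr4 was -0.52 with library size alone, -0.31 without a filter and -0.37 by the spot alone. Fcgr3 was 0.00144 without a filter, and Fcer1g -0.19 with library size alone, -0.03 by the spot alone and -0.01 in deep spots. Leaving out sections gave 1237 calls without CC080F1 replicate 2 to 3091, -0.39 to -0.20 for Fcgr1, -0.48 to -0.21 for Fcgr4, -0.13 to 0.09 for Fcgr3 and -0.08 to 0.10 for Fcer1g.

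The strain difference in Moran's I, CC075F1 minus CC080F1, was 0.010 for Fcgr2b and 0.0118 for Fcgr4 with thinned spots and 0.0212 for Fcgr4 on a square root scale. Leaving out sections gave -0.0401 to 0.00605 for Fcgr2b and -0.060 to 0.0598 for Fcgr4. For the share of spots it gave -5.15 to 0.15 percentage points for Fcgr2b and -0.40 to 1.10 for Fcer1g. The log2 balance difference between strains was 0.76 to 1.29.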
